A study of Mus musculus with 16 samples.

Results

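The genes described here encode voltage-gated and potassium ion channels of the mouse hippocampus. They are 43 genes chosen by name, with earlier results of these data known. They encode pore-forming and auxiliary subunits of sodium, potassium, hyperpolarization-activated and voltage-gated calcium channels. Every probe of the array that carries the gene symbol, or an older alias of the same gene, was collected, and the probe of highest mean signal stands for the gene. An alias counted where an Entrez number or accession tied it to the gene. A probe named C230009H10Rik, an alias of *Kcnc1* that neither tied, was kept apart although it is brighter than the probe named *Kcnc1*. Of the 43 genes, 39 have a probe, 69 probes in all, among 18034 genes and 25697 probes of the array. *Scn2a1*, *Scn3a*, *Kcnc2* and *Cacna1e* were not analysed here. *Kcnma1* is read by a single probe.

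RNA came from the whole hippocampus of *Mef2c*-het mice and of their WT littermates on the C57BL/6J background, taken at postnatal day (P) 1 and P30. *Mef2c*-het mice carry a conventional allele of *Mef2c* that lacks an exon, and it is present in every cell of the body. The labels call these mice KO. Each of the 4 groups of genotype and age holds 4 mice with 1 array each, and no mouse was treated. MEF2C is a transcription factor of developing and mature neurons.

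Voltage-gated sodium channels start the action potential, potassium channels end it and set how readily a neuron fires again, and calcium channels couple it to transmitter release and to signaling in the cell. Each pore is accompanied by auxiliary subunits that set its surface level and its kinetics. In rodents the hippocampal neuron acquires its adult firing pattern in the weeks after birth, and many of these channels are known as genes of inherited epilepsy. The comparisons made here are P30 against P1 in each genotype, *Mef2c*-het against WT at each age, and the difference of the age change between the genotypes.

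Between 12638 and 14150 probes were detected per array (detection p under 0.05 against negative control beads), and the median number of beads behind a probe was 36 to 39. Arrays of the same age correlated with r of 0.985 to 0.997 over all probes, and arrays of different ages with r of 0.921 to 0.944. Within each age the arrays formed 2 clusters. The smaller clusters held 5 arrays (WT replicate 8 and *Mef2c*-het replicate 8 at P1, and WT replicates 6 and 7 and *Mef2c*-het replicate 7 at P30), whose dimmest signals were higher, with a 5th percentile of 140.0 to 161 against 106 to 131 elsewhere. By *Xist* and genes of the Y chromosome all P30 arrays read as male, whereas 5 of 8 P1 arrays read as female (3 WT and 2 *Mef2c*-het), so sex moves with age. Hippocampal marker genes were present, with 10 of the 12 listed passing the detection filter, but *Emx2* and *Calb1* were detected on no array. Neither of the 2 *Mef2c* probes that passed the filter differed between the genotypes at P30 (log2 fold changes of −0.24 and −0.29, exact permutation p = 0.371 and 0.2). Where these probes lie relative to the deleted exon is not known here, so they do not check the labels.

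The channel genes rose together from P1 to P30. They were chosen with earlier results of these data known, so the comparisons with all genes describe them and are no independent test. In WT mice 22 of the 39 genes with a probe were detected on all 16 arrays, and of these 20 were higher at P30 at an adjusted p under 0.05 (limma, Benjamini-Hochberg adjusted over all probes tested), against 31.7% of the 8226 genes detected on all arrays. Only *Kcnk2* was lower, against 36% of all genes, and *Cacna1g* did not pass (log2 fold change 0.09). The rise was at least 1 on the log2 scale, a doubling of signal, in 10 of the 22 genes, against 8.79% of all genes. The 4 WT arrays at P30 lay wholly above the 4 at P1 in 19 of the 22 genes (28.6% of all genes). The median log2 fold change was 0.95 in the 22 genes and −0.05 over all genes detected on all arrays. In *Mef2c*-het mice, which share no array with the WT mice, 19 of the 22 genes were higher (30.2% of all genes), 9 of them by at least 1 on the log2 scale (8.23%), none was lower (36.3%), the ages did not overlap in 18 (27.3%), and the median was 0.78.

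Over all 34 genes that passed the filter of detection on at least 4 arrays, 31 were higher at P30 in WT mice (29% of 10891 genes) and 29 in *Mef2c*-het mice (27.8%), while 1 (32.8%) and 0 (33%) were lower. The log2 fold change was above 0 in 33 of the 34 genes in WT mice (46.5% of all genes) and in all 34 in *Mef2c*-het mice (47.1%). In WT mice 12 genes rose by at least 1 (7.46%) and 3 by at least 3 (0.523%) on the log2 scale, and in *Mef2c*-het mice 11 (7.05%) and 3 (0.505%). The ages did not overlap, with P30 higher, in 30 genes in WT mice (26.4%) and in 28 in *Mef2c*-het mice (25.2%), and in no gene with P30 lower (29.1% and 29.7%). A gene that passed only through its P30 arrays had to be higher there, so these counts describe the genes and support nothing more. The 5 genes with a probe that did not pass were *Kcna4*, *Kcnd3* and *Kcnh7*, which were detected on no array, *Cacna1c* on 1 array and *Kcnj9* on 3. The probes of *Kcnip4*, *Kcnq5* and *Kcnc1* were detected on no P1 array and on all 8 P30 arrays, whereas the alias probe of *Kcnc1* was detected on all 16 arrays. A fold change here is a ratio of signals that still hold their background, which compresses the change of dim probes: with normexp background correction the median over the 34 genes in WT mice was 1.55 in place of 0.90. With the sex read from the arrays as a covariate it was 0.67, with 29 genes higher. The probe chosen also mattered for some genes: *Cacnb4* rose by 1.91 by its brightest probe and 0.27 by the next, but *Kcnab1* by 3.42 and 3.23. For the 13 genes with a further tested probe the median of the next brightest probe was 0.27, with 9 of 13 higher. These 13 are a part of the 34, so 0.27 and 0.90 also differ in the genes behind them. On the 11 arrays of the larger clusters alone 30 of 34 genes were higher in WT mice.

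In whole tissue, fewer cells of a type and less RNA per cell cannot be told apart, and the markers of several cell types moved with age. Of 12 genes of mature neurons, *Snap25* and *Nefl* were detected on no array. The summed signal of the 12 genes was 14507 to 19258 on the WT arrays at P1 and 74351 to 79524 at P30. Summed over 9 oligodendrocyte genes the signal was 8309 to 9757 at P1 and 102330 to 115685 at P30. That of 9 genes of immature neurons fell from 75465 to 81921 at P1 to 34534 to 36326 at P30, and that of 9 genes of proliferating cells from 6167 to 7018 to 1725 to 1814. The part of these cell types in the change of the channel genes was not tested.

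The largest rises were in auxiliary subunits, whose probes ranked among the top 38 of 10891 genes by their rise in WT mice. *Scn2b*, the β2 subunit that is linked to the sodium channel pore by a disulfide bond, read 7.93, 7.93, 8.18 and 8.12 (log2 signal) in the 4 WT mice at P1 and 11.66, 11.67, 11.52 and 11.71 at P30. In *Mef2c*-het mice it read 7.90, 8.09, 8.0 and 8.31 at P1 and 11.58, 11.59, 11.89 and 11.56 at P30. The ages were far apart and the genotypes overlapped at both. Its log2 fold change was 3.6 ± 0.10 (standard error, n = 4 per group; limma adjusted p = 2.73e-14), a 12.1-fold rise, in WT mice and 3.58 in *Mef2c*-het mice.

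*Kcnab2* and *Kcnab1* encode the β2 and β1 subunits of Kv1 channels, cytoplasmic proteins that help the pore reach the axon and, for β1, speed its inactivation. *Kcnab2* read 10.16, 9.68, 9.79 and 10.12 in WT mice at P1 and 13.42, 13.44, 13.49 and 13.71 at P30, and 9.95, 9.95, 9.88 and 10.21 in *Mef2c*-het mice at P1 and 13.49, 13.32, 13.36 and 13.45 at P30. *Kcnab1* read 8.79, 8.57, 8.85 and 8.94 in WT mice at P1 and 12.24, 11.99, 12.41 and 12.20 at P30, and 8.78, 8.78, 8.74 and 9.22 in *Mef2c*-het mice at P1 and 12.08, 12.15, 12.18 and 12.27 at P30. Both genes were separated by age on every array. The log2 fold changes in WT mice were 3.58 ± 0.11 for *Kcnab2* and 3.42 ± 0.11 for *Kcnab1* (adjusted p = 1.05e-13 and 2.86e-13), and in *Mef2c*-het mice 3.41 and 3.29. Of the further *Kcnab1* probes, one gave 3.23 and another 0.86 in WT mice.

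The pores that these β subunits serve were near the limit of detection at P1. *Kcna1* and *Kcna2* encode Kv1.1 and Kv1.2, the low-threshold potassium channels of axons. In WT mice neither was detected on a P1 array and both were detected on all P30 arrays, which gives a rise of at least 1.75-fold for *Kcna1* and at least 1.81-fold for *Kcna2*. These bounds set the P30 mean against the lowest signal among detected probes at P1. *Kcna1* passed the filter through its P30 arrays, where it is high, so it had to be higher there.

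**Figure D1:**
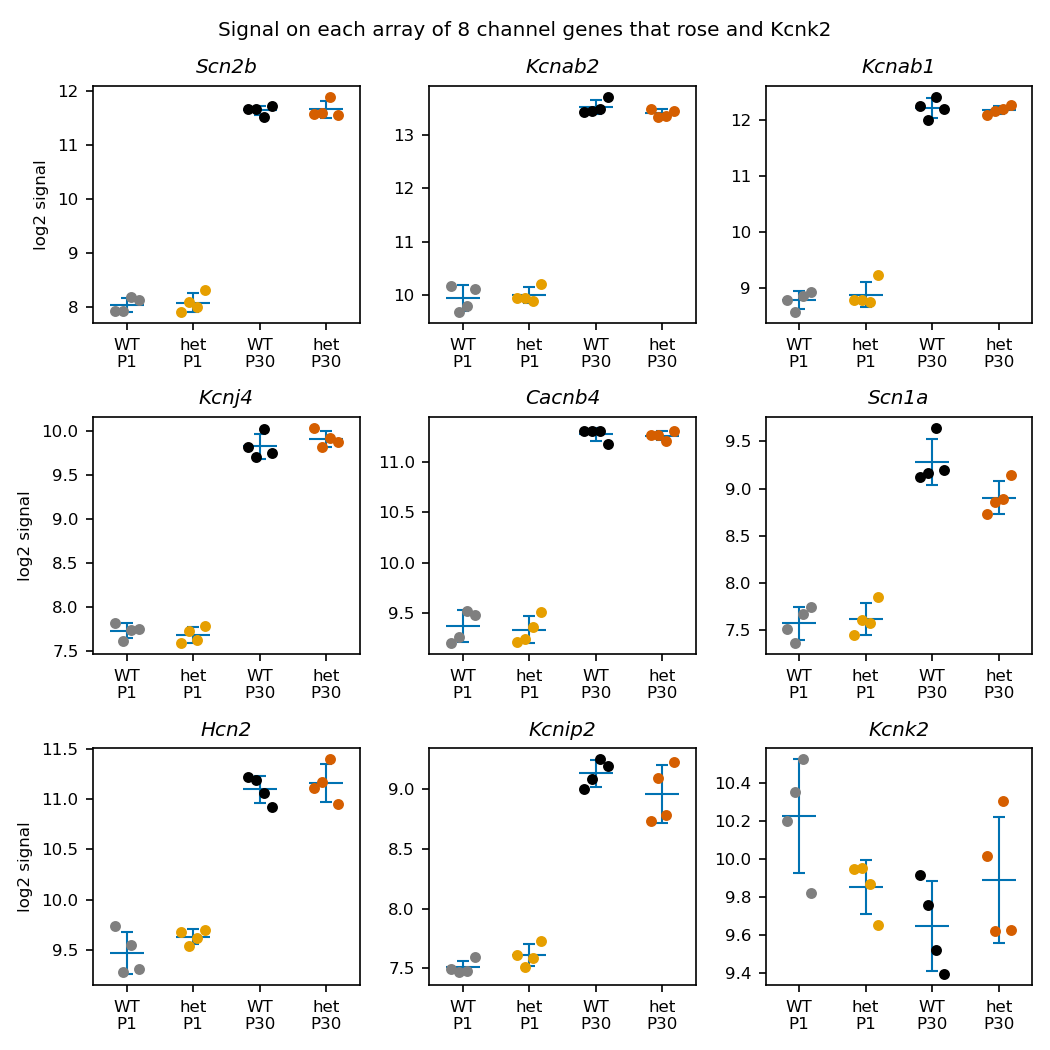
Log2 signal, quantile normalized over the 16 arrays, of the 8 channel genes with the largest rise in WT mice and of *Kcnk2*, in WT and *Mef2c*-het (het) mice at P1 and P30. Each point is an array, all of these probes being detected, and the blue line and bars are the mean ± SD of 4 mice. The ages were apart for the 8 genes that rose, whereas for *Kcnk2* the groups overlapped.

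*Kcnj4*, which encodes the strong inward rectifier Kir2.3, followed. Its probe read 7.82, 7.62, 7.75 and 7.76 in WT mice at P1 and 9.82, 9.70, 10.02 and 9.75 at P30, and 7.59, 7.73, 7.63 and 7.79 in *Mef2c*-het mice at P1 and 10.03, 9.82, 9.91 and 9.87 at P30. The rise was 2.09 ± 0.08 on the log2 scale in WT mice (adjusted p = 9.81e-13) and 2.22 in *Mef2c*-het mice. The G-protein-gated inward rectifiers changed less: *Kcnj3* (GIRK1) rose by 0.63 and *Kcnj6* (GIRK2), undetected at P1 in WT mice, by at least 1.32-fold. *Kcnj6* passed the filter only through its P30 arrays, so it had to be higher there.

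Among auxiliary calcium channel subunits *Cacnb4*, the β4 subunit that carries the pore to the membrane, rose most. It read 9.20, 9.26, 9.52 and 9.48 in WT mice at P1 and 11.31, 11.31, 11.31 and 11.17 at P30, and 9.21, 9.24, 9.36 and 9.51 in *Mef2c*-het mice at P1 and 11.26, 11.26, 11.20 and 11.31 at P30. The log2 fold change was 1.91 ± 0.08 (adjusted p = 4.73e-12) in WT mice and 1.93 in *Mef2c*-het mice, while a dimmer *Cacnb4* probe gave 0.27 and 0.11. *Cacnb2*, *Cacnb3* and *Cacna2d1*, the other auxiliary subunits, rose by 0.94, 0.33 and 0.89 in WT mice. A dimmer *Cacnb2* probe gave 0.52. Dimmer *Cacnb3* probes gave 0.18, 0.26 and 0.33 (limma adjusted p = 0.161, 0.0809 and 0.00277). Of the pores, *Cacna1a* (P/Q-type) rose by 0.31 and *Cacna1b* (N-type) by 0.20 in WT mice. The *Cacna1b* probe was detected on 1 of 4 WT arrays at P1, so that this value is compressed by background. *Cacna1g* (T-type) gave 0.09, and none of these 3 passed the threshold in *Mef2c*-het mice (0.21, 0.08 and 0.21).

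*Scn1a* and *Scn8a* encode the sodium channel pores Nav1.1, which is prominent in inhibitory interneurons, and Nav1.6 of the axon initial segment. *Scn1a* read 7.5, 7.36, 7.67 and 7.74 in WT mice at P1 and 9.13, 9.17, 9.65 and 9.19 at P30. In *Mef2c*-het mice it read 7.44, 7.61, 7.57 and 7.85 at P1 and 8.72, 8.86, 8.88 and 9.14 at P30. The ages were apart in both genotypes, with log2 fold changes of 1.72 ± 0.13 (adjusted p = 5.04e-09) in WT and 1.28 in *Mef2c*-het mice. *Scn8a* rose by 1.14 and 1.11, and *Scn3b*, the β3 subunit, which is abundant before birth, by 0.69 and 0.43. Dimmer *Scn3b* probes gave 0.41, 0.32 and 0.08 in WT mice.

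*Hcn2* encodes a channel opened by hyperpolarization that carries the Ih current. Its probe read 9.74, 9.29, 9.55 and 9.31 in WT mice at P1 and 11.21, 11.19, 11.06 and 10.92 at P30, and 9.68, 9.54, 9.62 and 9.70 in *Mef2c*-het mice at P1 and 11.11, 11.17, 11.40 and 10.95 at P30. *Kcnip2* encodes a KChIP, a calcium-binding subunit of the A-type Kv4 channels. It read 7.49, 7.47, 7.48 and 7.59 in WT mice at P1 and 9.0, 9.08, 9.25 and 9.19 at P30, and 7.61, 7.52, 7.59 and 7.73 in *Mef2c*-het mice at P1 and 8.73, 9.09, 8.78 and 9.23 at P30. Both genes rose by 1.62 on the log2 scale in WT mice (standard errors 0.11 and 0.10; adjusted p = 1.36e-09 and 4.18e-10), and by 1.52 and 1.35 in *Mef2c*-het mice, without overlap between the ages. Dimmer *Kcnip2* probes gave 0.67 and 0.72 in WT mice. Of the other Kv4 channel genes, the pore *Kcnd2* rose by 0.95 and *Kcnip3* by 0.62 on the log2 scale in WT mice. *Kcnip4*, which was undetected at P1 and passed the filter through its P30 arrays, was at least 2.04-fold higher.

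*Kcnh1*, *Kcnh3* and *Kcnh2*, of the EAG, ELK and ERG types, rose by 1.04, 0.94 and 0.67 in WT mice. The *Kcnh1* probe was detected on 1 of 4 WT arrays at P1, which leaves its value there near background, and a dimmer probe gave 0.04. *Kcnh1* passed the filter only through its P30 arrays, so it had to be higher there. *Kcnc1* (Kv3.1), a channel of fast-spiking neurons, was at least 1.32-fold higher at P30 in WT mice by the probe that carries its symbol, which was undetected at P1. The brighter alias probe, detected at both ages, rose by 0.89 in WT and 0.73 in *Mef2c*-het mice. *Kcnq5* and *Kcnq3*, pores of the M-current, rose by at least 1.40-fold and by 0.27 on the log2 scale. The *Kcnq5* probe and the probe named *Kcnc1* also passed the filter only through their P30 arrays and had to be higher there. *Kcnmb4*, the β4 subunit of the large-conductance calcium-activated (BK) channel, rose by 0.38 in WT mice, and *Kcnn2*, a small-conductance calcium-activated channel detected on 9 of 16 arrays, gave 0.22 (adjusted p = 0.25).

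**Figure D2:**
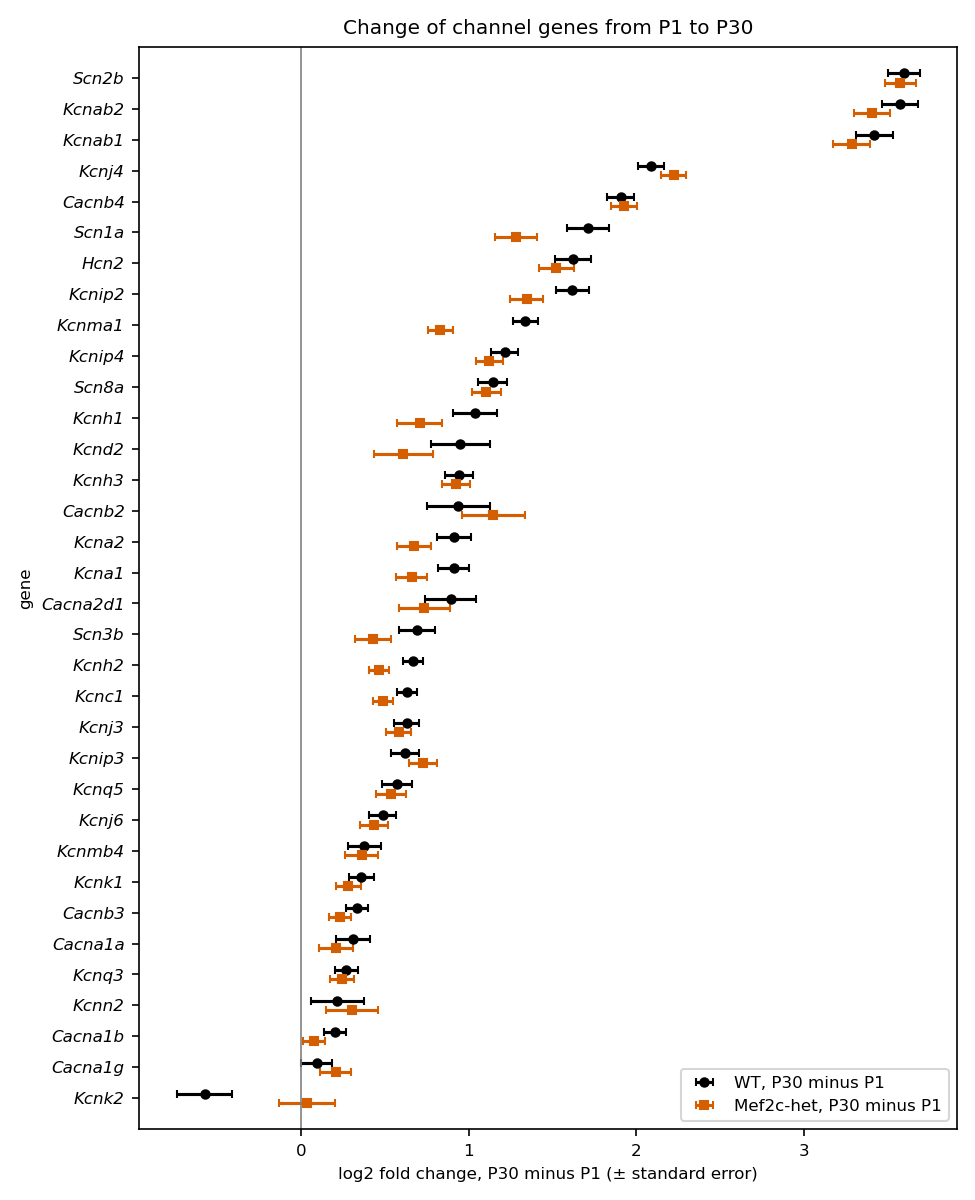
Log2 fold change of the 34 tested channel genes from P1 to P30 with its standard error, in WT mice (black circles) and *Mef2c*-het mice (orange squares), ordered by the value in WT mice. All but *Kcnk2* lie to the right of 0 in WT mice, the largest rises being 3.6 (*Scn2b*), 3.58 (*Kcnab2*) and 3.42 (*Kcnab1*).

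*Kcnk2* encodes TREK-1, a leak potassium channel of the tandem-pore family gated by stretch, temperature and lipids, and it was the exception. It read 10.20, 10.35, 10.53 and 9.82 in WT mice at P1 and 9.92, 9.76, 9.52 and 9.39 at P30. In *Mef2c*-het mice it read 9.95, 9.95, 9.87 and 9.65 at P1 and 10.02, 9.62, 10.31 and 9.63 at P30. The WT groups overlapped, since replicate 8 at P1 (9.82), an array of a smaller cluster, lay below replicate 2 at P30 (9.92). The log2 fold change was −0.58 ± 0.17 in WT mice (adjusted p = 0.00698; exact permutation p = 0.0571) and 0.04 in *Mef2c*-het mice. The fall no longer passed with sex as a covariate (−0.36, adjusted p = 0.153), and the dimmer *Kcnk2* probe gave −0.01. *Kcnk1* (TWIK-1), the other gene of this family, rose by 0.36.

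The promoters of these genes differ widely in base composition, which the 100 bases before the annotated start show for the 2 largest risers with a single start in the RefSeq table and for the 2 genes lowest in *Mef2c*-het mice at P30. Capitals mark CG dinucleotides, and sequence, coordinates and strand are those of RefSeq on GRCm38.p6. For *Kcnj4* and *Kcnma1* the start used lies inside the span of the gene, which reaches 79512511 and 24005110. Their stretches therefore do not precede the outermost end of the gene.
Scn2b, chr9:45117776-45117875, plus strand: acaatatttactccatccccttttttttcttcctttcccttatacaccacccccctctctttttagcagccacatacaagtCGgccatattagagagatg
Kcnj4, chr15:79505242-79505341, minus strand: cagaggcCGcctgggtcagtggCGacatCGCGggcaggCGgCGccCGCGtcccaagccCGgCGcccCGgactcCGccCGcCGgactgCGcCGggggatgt
Kcnma1, chr14:24004206-24004305, minus strand: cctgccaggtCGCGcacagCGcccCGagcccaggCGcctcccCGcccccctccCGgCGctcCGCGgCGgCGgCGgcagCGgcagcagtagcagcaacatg
Scn1a, chr2:66440838-66440937, minus strand: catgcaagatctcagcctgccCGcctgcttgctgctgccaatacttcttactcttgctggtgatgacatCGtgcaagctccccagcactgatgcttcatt
These stretches hold 1 CG in *Scn2b*, 16 in *Kcnj4*, 14 in *Kcnma1* and 2 in *Scn1a*. Over the 250 bases before the start the G and C content was 38.4%, 77.2%, 79.2% and 46.8%. For 35 of the 43 genes 58 promoters were found, with a median G and C content of 59.6% and 8 CG, against 52.4% and 6 over all 32851 promoters.

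Motifs were searched on both strands of these 250 bases. The MEF2 consensus was found in 1 of the 58 promoters (1.72%), against 2.92% of all promoters. That promoter is of *Kcnj9* (GIRK3), whose probe was detected on 3 arrays and was not tested, and the match is in capitals here:
Kcnj9, chr1:172329406-172329465, minus strand: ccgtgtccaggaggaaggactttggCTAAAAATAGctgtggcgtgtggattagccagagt
The cAMP response element TGACGTCA was found in no promoter of the set (1.55% of all promoters) and its core TGACG, which it contains, in 12.1% (17.8%). The left part CAGCACC and the right part GGACAG of the RE1 element, which binds the repressor REST of neuronal genes, were found in 6.9% (5.73%) and 19.0% (18.7%), and the TATA box TATAAA in 3.45% (12.4%).

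The other channel genes of the array moved both ways. Of 80 further genes named as channel subunits 45 were tested, and 24 were higher and 7 lower at P30 in WT mice, against 29% and 32.8% of all genes. In *Mef2c*-het mice 20 were higher and 7 lower, against 27.8% and 33%. The median in WT mice was 0.23. The largest rises in WT mice were *Kcnc4* (Kv3.4) by 2.90, the silent subunit *Kcnf1* by 2.51 and the sodium channel subunit *Scn4b* by 1.53. The largest falls were *Kcne1l* (−1.82), *Hcn3* (−1.02), *Cacng4* (−0.98) and *Kcnu1* (−0.64). Of 18 genes of proteins that anchor or modulate channels 17 had a probe and 15 were tested, 9 higher and 2 lower in WT mice, against the same 29% and 32.8%. *Lgi1*, a secreted synaptic protein known from inherited epilepsy, rose by 2.22, *Sptbn4*, the βIV spectrin of axon initial segments, by 1.55, *Fgf12* by 1.12 and *Cntn1* by 1.00. *Cntnap2*, which holds Kv1 channels beside the node, gave −0.80 and *Nedd4l*, a ubiquitin ligase, −0.57.

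No channel gene differed between the genotypes in its age change at the adjusted threshold, and most values lay slightly below 0. Of the 34 genes, 27 had a log2 difference of maturation, *Mef2c*-het minus WT, below 0, against 54.2% of all genes, with a median of −0.10 against −0.01 (limma; lowest adjusted p 0.998). The median signal of the 34 genes on an array, which is another measure, varied between arrays of a group with an SD of 0.09. It lay at 7.67 to 7.81 in WT and 7.73 to 7.91 in *Mef2c*-het mice at P1. At P30 it lay at 8.93 to 9.20 and 8.73 to 8.93. By limma's unadjusted p under 0.05, 3 genes were lower, against 1.93% of all genes, and 1 was higher (1.26%). The difference for *Kcnma1* was −0.51 ± 0.11 (limma unadjusted p = 0.000231, adjusted p = 0.998). It was −0.43 ± 0.18 for *Scn1a* (unadjusted p = 0.0276, adjusted p = 0.998), −0.20 ± 0.08 for *Kcnh2* (unadjusted p = 0.0294, adjusted p = 0.998) and 0.61 ± 0.24 for *Kcnk2* (unadjusted p = 0.0197, adjusted p = 0.998) in the same limma fit. The dimmer *Kcnh2* and *Kcnk2* probes gave 0.00 for this difference. The count of these genes depended on single arrays: it was 11 without *Mef2c*-het replicate 7 at P30, 7 without WT replicate 2 at P30, and 2 without WT replicate 4 or *Mef2c*-het replicate 8 at P1 or WT replicate 6 at P30. This test uses the same arrays as the comparisons of genotype and is no independent evidence of them.

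At P30 none of the 34 tested genes differed between *Mef2c*-het and WT mice at an adjusted p under 0.05 (limma; lowest adjusted p 0.976), and 1 of 9989 genes did, which is lower in *Mef2c*-het mice and is no channel gene. At an unadjusted p under 0.05, 3 channel genes were lower, against 1.9% of all genes, and none was higher (0.721%). The log2 fold change was below 0 in 23 of 34 genes (55.7% of all genes), with a median of −0.05 against −0.01. Between arrays of a group the median signal of the 34 genes varied with an SD of 0.10, larger than this median difference. The genes that rose most with age gave values near 0: 0.01 ± 0.09 for *Scn2b*, −0.11 ± 0.08 for *Kcnab2*, −0.04 ± 0.09 for *Kcnab1*, 0.09 ± 0.08 for *Kcnj4* and −0.01 ± 0.06 for *Cacnb4*.

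*Kcnma1*, which encodes the pore of the BK channel that shapes spike repolarization, was the sole tested channel gene whose genotypes did not overlap at P30 (1.31% of all genes were apart with *Mef2c*-het mice lower and 0.631% with them higher). Normalized over the 8 P30 arrays it read 8.92, 9.13, 9.14 and 8.90 in WT mice and 8.60, 8.66, 8.60 and 8.81 in *Mef2c*-het mice. The log2 fold change was −0.36 ± 0.08, a signal 0.78-fold that of WT mice (limma unadjusted p = 0.00157, adjusted p = 0.976). The exact permutation p was 0.0286, the smallest that 4 against 4 arrays allow. Any gene without overlap gives this value, and *Kcnma1* was among the genes chosen with earlier results of these data known. With a term for the array clusters it was −0.33, on the larger clusters alone −0.41, and −0.32 to −0.40 without any single array. Its auxiliary subunit *Kcnmb4* gave 0.00 ± 0.10. At P1 *Kcnma1* was not lower: normalized over 16 arrays it read 7.80, 7.73, 7.78 and 7.59 in WT mice and 7.91, 7.79, 7.80 and 7.96 in *Mef2c*-het mice, with a log2 fold change of 0.15 ± 0.07 in the fit of the P1 arrays (unadjusted p = 0.0767). From P1 to P30 it rose by 1.34 in WT and 0.83 in *Mef2c*-het mice, or by 2.21 and 1.40 with normexp background correction.

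**Figure D3:**
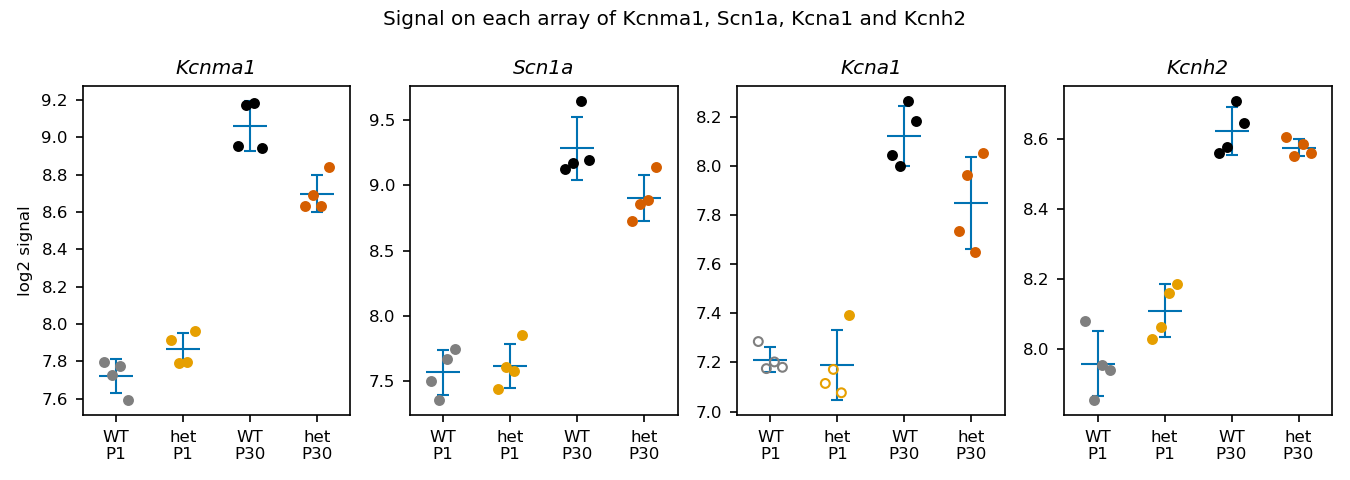
Log2 signal, quantile normalized over the 16 arrays, of *Kcnma1*, *Scn1a*, *Kcna1* and *Kcnh2* in WT and *Mef2c*-het (het) mice at P1 and P30. Each point is an array (filled, detected; open, detection p of 0.05 or more), and the blue line and bars are the mean ± SD of 4 mice. At P30 the *Kcnma1* groups did not overlap (8.94 to 9.18 in WT and 8.63 to 8.84 in *Mef2c*-het mice), whereas those of the other genes did.

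*Scn1a* was lower by a like amount with more spread. Normalized over the P30 arrays it read 9.08, 9.12, 9.59 and 9.15 in WT mice and 8.69, 8.83, 8.85 and 9.10 in *Mef2c*-het mice. The groups overlapped at *Mef2c*-het replicate 7 and WT replicate 2, and the log2 fold change was −0.37 ± 0.13 (unadjusted p = 0.0158; exact permutation p = 0.0571). Without WT replicate 6, which stood above the other WT mice, it was −0.25. At P1 the value was 0.05 ± 0.11.

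*Kcna1* read 8.02, 7.97, 8.23 and 8.15 in WT mice and 7.72, 7.94, 7.63 and 8.02 in *Mef2c*-het mice at P30. The groups overlapped, and the log2 fold change was −0.27 ± 0.10 (unadjusted p = 0.0248; exact permutation p = 0.0857). *Kcnh1* (−0.28 ± 0.15) and *Cacna2d1* (−0.19 ± 0.12) gave values with p above 0.1. The count of 3 genes at P30 was 8 without *Mef2c*-het replicate 7, 5 without WT replicate 2 and 1 without *Mef2c*-het replicate 3, and 5 with a term for the array clusters. For the 12 genes with a further tested probe no such probe had an unadjusted p under 0.05, and 6 of the 12 had probes of mixed direction. *Kcnma1*, *Scn1a* and *Kcna1* have a single probe each and are not among these 12, so this does not check them.

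Markers of cell types gave medians on both sides of 0 between the genotypes at P30. Some lay further from 0 than the −0.05 of the 34 channel genes. The summed signal of mature neuron genes was 74351 to 79524 in WT and 69883 to 77086 in *Mef2c*-het mice. Their median log2 fold change was −0.10, against −0.01 over all genes tested. The interneuron genes, of which *Gad2* and *Lhx6* were detected on no array, summed to 27173 to 33992 in WT and 28539 to 35971 in *Mef2c*-het mice, with a median of −0.01. The oligodendrocyte genes had a median of −0.10 and the microglia genes of 0.12. No gene of these lists passed the adjusted threshold, and their part in the values of the channel genes was not tested.

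**Figure D4:**
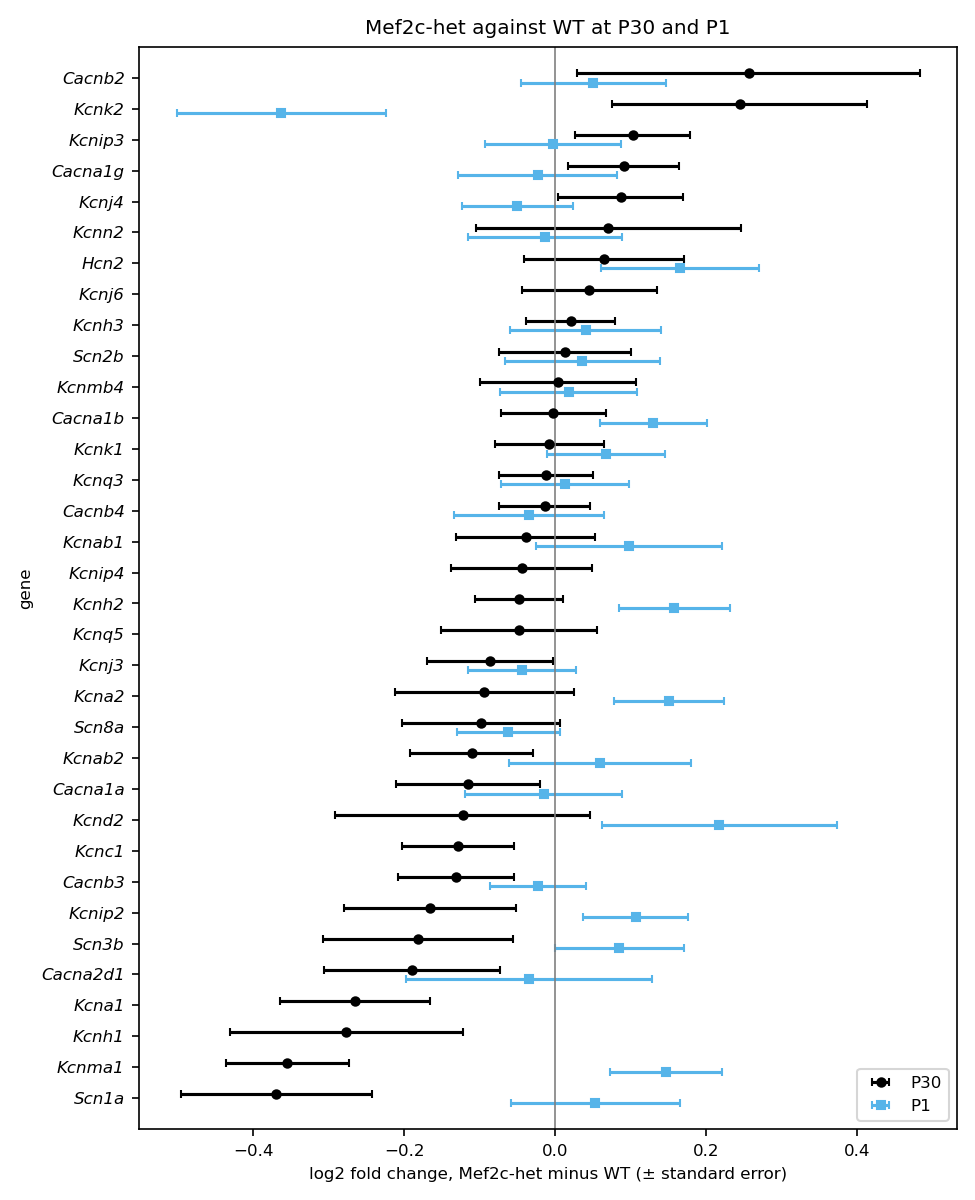
Log2 fold change, *Mef2c*-het minus WT, with its standard error at P30 (black circles, 34 genes) and at P1 (blue squares, 28 genes), ordered by the value at P30. No gene passed the adjusted threshold at either age, and *Scn1a* (−0.37) and *Kcnma1* (−0.36) were lowest at P30.

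At P1 28 channel genes were tested between the genotypes, and none passed the adjusted threshold (limma; lowest adjusted p 1). *Kcnk2* alone had an unadjusted p under 0.05 (−0.36 ± 0.14, p = 0.0263; exact permutation p = 0.114), against 1.02% of all genes lower, and none was higher (0.625%). The groups overlapped: normalized over the 16 arrays the *Mef2c*-het arrays at P1 lay at 9.65 to 9.95 and the WT arrays at 9.82 to 10.53. The dimmer *Kcnk2* probe gave −0.04, and at P30 the brighter probe gave 0.24 ± 0.17. The median over the 28 genes was 0.04, against 0.00 over all genes tested, and 17 of 28 lay above 0 (52.2% of all genes). In every tested channel gene the genotypes overlapped at P1, whereas they did not in 0.585% of all genes, with *Mef2c*-het mice higher, and in 0.684%, with them lower. Leaving out WT replicate 4 or 5 or *Mef2c*-het replicate 8 left no such gene, *Mef2c*-het replicate 1 left 2 and WT replicate 1 left 3. *Kcnh2* read 8.08, 7.85, 7.96 and 7.94 in WT mice and 8.03, 8.06, 8.16 and 8.19 in *Mef2c*-het mice at P1, and 8.56, 8.58, 8.71 and 8.65 and 8.61, 8.55, 8.59 and 8.56 at P30. It differed by 0.16 ± 0.07 at P1 and by −0.05 ± 0.06 at P30, with overlap between the genotypes at both ages.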

How the data were processed

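Per the labels, hippocampal RNA was made into biotinylated cRNA and hybridized to Illumina beadchips, 1 mouse per array. The authors deposited linear mean bead intensities that had not been normalized. The deposited table gives each intensity a detection p-value, a standard error and a bead number. The labels name lumi and limma, whose versions are not given in the sources used here. Intensities were transformed here to log2 and quantile normalized over the arrays of a fit, with the background left in. The filter kept probes detected (p under 0.05) on 4 or more arrays. These were fitted with limma 3.58.1 in R 4.3.3 (lmFit, eBayes, Benjamini-Hochberg over all probes tested), in 16 arrays for the age changes and their difference and in 8 arrays for each comparison of genotype. Exact permutation tests were two-sided over 35 splits. Of 25697 probes 25376 were named through the RefSeq gene table of GRCm38.p6.

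Values on every array are given for the 8 largest rises and the falls in WT mice, and for genes with an unadjusted p under 0.05 or no overlap between genotypes. Of the other channel and partner genes the 4 largest rises and falls that passed are named, except for an item not reported here. The 43 genes and all lists were chosen with earlier results of these data known. Sex, litter and chip are absent from the labels, and p-values measure the spread between these mice. Alternatives were normexp (offset 16), median scaling, cyclic loess, no filter or a detection p under 0.01, trend and robust variances, terms for array cluster, sex or replicate number, all 16 arrays together, the next tested probe and leaving out each array. The larger clusters alone and the genes detected on all 16 arrays alone were added after the data were seen. The fits were tested on simulated data.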

Additional observations from a re-analysis of the deposited data

Results flagged for a closer look

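Of 48 groups of 4 arrays looked at for the named genes, 4 held an array whose distance from its nearest neighbour, as a ratio to the range of the group, was above Dixon's critical value. Chance gives about 2.4 such groups. *Scn2b* stood high on *Mef2c*-het replicate 6 at P30 (11.89 against 11.59 on the nearest array, ratio 0.902). *Kcnab1* stood high on *Mef2c*-het replicate 8 at P1 (9.22 against 8.78, ratio 0.923), an array of a smaller cluster. *Cacnb4* stood low on WT replicate 7 at P30 (11.17 against 11.31, ratio 0.994), and *Scn1a* stood high on WT replicate 6 at P30 (9.65 against 9.19, ratio 0.872), both arrays of a smaller cluster.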

How the results depend on the processing

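The rises of *Scn2b*, *Kcnab2*, *Kcnab1*, *Kcnj4*, *Scn1a*, *Hcn2*, *Kcnip2* and *Kcnma1* passed the adjusted threshold under every alternative run, and that of *Cacnb4* under all but the next tested probe in *Mef2c*-het mice (0.11). Apart from *Kcnab1*, *Kcnip2* and *Cacnb4* these genes have a single probe, so the next tested probe was no check of them. No channel gene passed it between the genotypes under any alternative. In WT mice the median rise was 1.55 with normexp, 0.67 without a filter and 0.67 with sex as a covariate. With the next tested probe, which only 13 of the genes have, it was 0.27 (9 genes higher, 0 lower). With sex 0 channel genes and 1 partner gene were lower. In *Mef2c*-het mice the median rise was 1.41 with normexp and 0.14 with the next tested probe of the 13 genes (5 higher). There 1 partner gene was lower with median scaling. Among genes detected on all arrays 20 and 19 were higher, with a median of 0.78 in *Mef2c*-het mice. Genes with an unadjusted p under 0.05 at P30 numbered 5 with the array cluster as a block or all 16 arrays together, 7 with the replicate block and 0 with the next tested probe (1 to 8 leaving out single arrays). At P1 they numbered 5 with normexp, 0 with median scaling, 4 without a filter, 2 with trend and robust variances, the array cluster as a block or all arrays together, 4 with the replicate block and 0 with the next tested probe (0 to 3 leaving out single arrays). For the difference of maturation they numbered 0 with the next tested probe (2 to 11 leaving out single arrays). *Kcnma1*, *Scn1a* and *Kcna1* have a single probe each, so the counts with the next tested probe do not check them. The cause of the changes between settings was not tested.

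The sign turned for some values of single genes. *Kcnk2* in *Mef2c*-het mice gave −0.043 with median scaling and −0.00282 with its next probe, and ranged from −0.10 to 0.127 leaving out single arrays: −0.10 without *Mef2c*-het replicate 6 at P30, −0.031 without *Mef2c*-het replicate 8 at P1 and −0.00544 without *Mef2c*-het replicate 3 at P30. *Scn1a* at P1 gave −0.00485 with sex, −0.02 without WT replicate 4 and −0.026 without *Mef2c*-het replicate 8 (range to 0.119). The next *Kcnh2* probe gave 0.00478 for the difference of maturation and −0.046 at P1, the next *Kcnk2* probe −0.032 at P30, and *Kcnh2* gave 0.012 at P30 on the larger clusters alone. Of the same-numbered pairs, correlations of deviations ranged from −0.532 to 0.708 at P30 and from 0.09 to 0.828 at P1, and not every pair exceeded 0.1, so the numbers were not taken to pair the mice. The replicate 8 pair at P1 and the replicate 7 pair at P30, which gave the highest values, lie in the smaller clusters, and the replicate block changed no adjusted call between genotypes. A block for the chip could not be run. Signal over background limits the dim probes, and 4 mice per group limit the genotype comparisons.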

Other observations

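*Kcnn2*, singled out after its values were seen, followed the array clusters at P30 and not the genotype. It read 7.20 and 7.27 in WT mice and 7.18 in the *Mef2c*-het mouse of the smaller cluster, and 7.79 to 7.85 in WT and 7.73 to 7.76 in *Mef2c*-het mice of the larger cluster. On the smaller cluster it was not detected (detection p of 0.178, 0.114 and 0.212), so its values there are readings of background.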
